A study of Homo sapiens with 8 samples.

Results

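The end of the long arm of chromosome 8 carries a dense accumulation of ORCA binding sites in U2OS cells. It was taken here as every peak whose midpoint lay on chromosome 8 at or beyond position 140000000 of the human genome build hg19. This gave 896 of 10666 early G1 ORCA peaks, 909 of 10341 mid G1 peaks, 151 of 1328 late G1 peaks and 826 of 74497 MeDIP peaks, together 2782 of 96832 peaks on chromosomes 1 to 22 and X. The stretch was selected on the number of ORCA peaks per Mb in these same lists, so that its density is given as a description.

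The groups were U2OS cells synchronized at early G1, at mid G1 and at late G1, each with ORCA chromatin immunoprecipitation and sequencing (ChIP-seq), and U2OS cells whose cell cycle stage the labels do not give, with methylated DNA immunoprecipitation and sequencing (MeDIP-seq). Each of these 4 samples had an input sample, and the 4 inputs were not analysed here. U2OS is a human osteosarcoma line and stands here as a single line grown in culture medium with serum, with 1 sample per group and no replicates. The late list is much shorter than the early and mid lists and its name carries another number beside the caller's name, and the depth of sequencing is unknown. Differences between stages were therefore not tested, and intervals are 95% Wilson intervals for shares, or Newcombe intervals for differences of shares, that cover counting error only.

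ORCA, the product of the LRWD1 gene, is a WD-repeat protein that binds the origin recognition complex and holds it on chromatin. In G1 the origin recognition complex directs the loading of the replicative helicase at sites from which DNA replication can start in the following S phase. ORCA is also known for its association with heterochromatin and with repressive histone methylation. MeDIP pulls down fragments that carry methylated cytosine, so that a MeDIP peak marks a stretch with many methylated CpG sites. The ends of human chromosome arms tend to be rich in genes and in CpG.

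The domain held most of the ORCA peaks of its chromosome. From 140 Mb to the last peak it spans 6.23 Mb, which is 4.64% of the length of chromosome 8 used here, and it contained 69.0% of the early peaks of the chromosome, 71.1% of the mid peaks and 81.6% of the late peaks. Early peaks stood at 144 per Mb in the domain and at 3.14 per Mb in the rest of chromosome 8, a ratio of 45.8 (interval 40.7 to 51.6). Mid peaks stood at 146 per Mb in the domain and 2.88 per Mb in the rest, a ratio of 50.7 (interval 44.9 to 57.2). Late peaks stood at 24.2 and 0.265 per Mb, a ratio of 91.3 (interval 63.1 to 132). MeDIP peaks stood at 133 per Mb in the domain and 15.8 per Mb in the rest, a ratio of 8.41 (interval 7.76 to 9.12). The selection on ORCA peaks favours high ORCA ratios, and nothing is read from their order or from their distance to the MeDIP ratio.

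The size of these ratios depends on which peaks are counted. When the early and mid lists kept as many top-scoring peaks as the late list has, the ratio was 167 for early and 109 for mid peaks. These rest on 195 and 201 domain peaks, but on 24 early and 38 mid peaks in the rest. Their intervals were 109.7 to 254.5 and 77.03 to 153.6. As covered bases, early peaks took up 15.2% of the domain and 0.252% of the rest, mid peaks 16.0% and 0.239%, late peaks 3.41% and 0.0280%, and MeDIP peaks 22.1% and 1.51%.

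**Figure D1:**
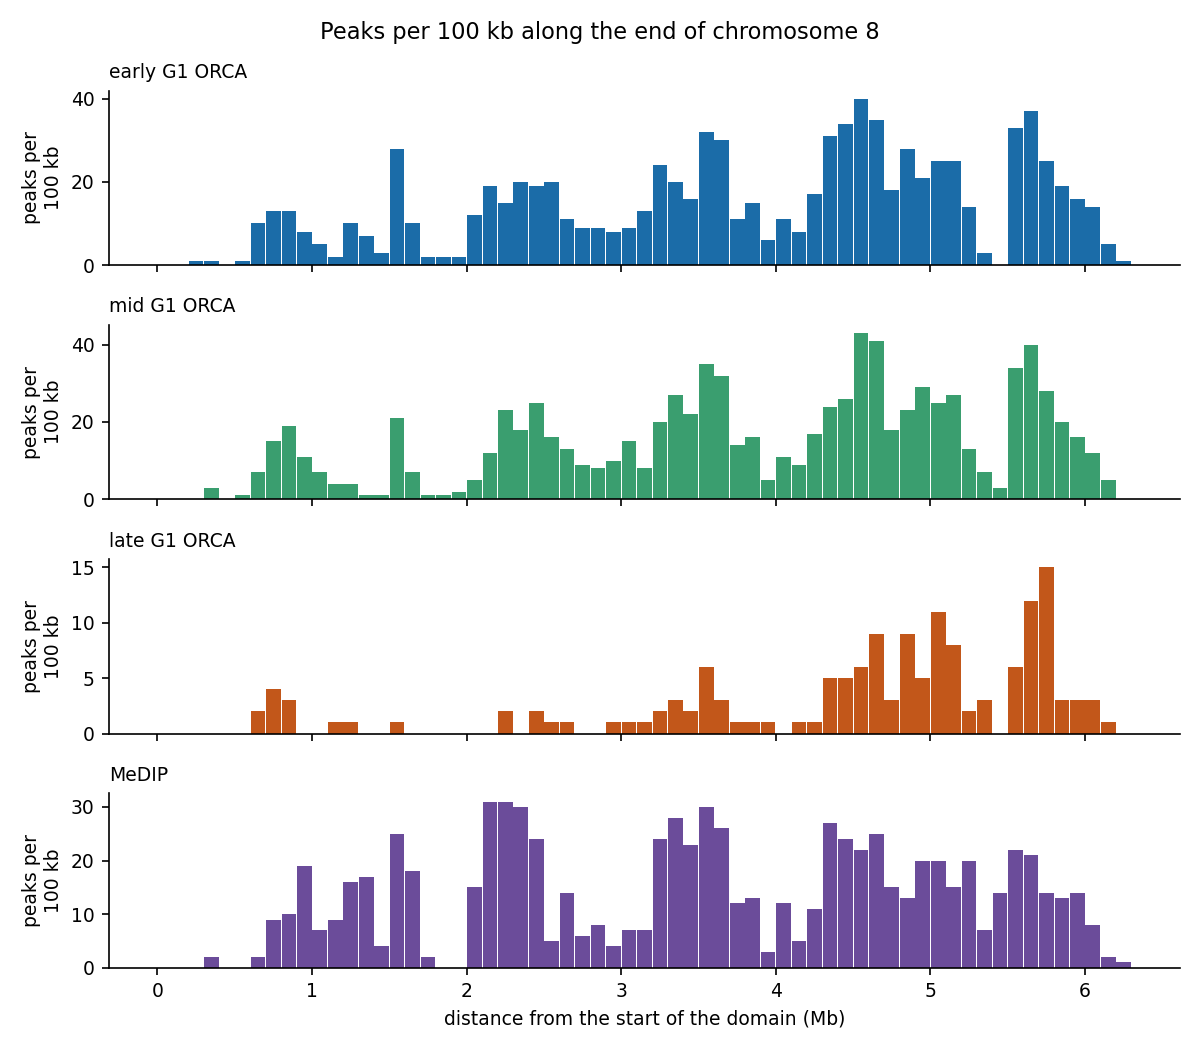
Peaks per 100 kb (y axis) against the distance from 140 Mb (x axis, Mb) in 63 bins, for early, mid and late G1 ORCA and for MeDIP. Early and mid peaks form the same succession of crests, with up to 40 and 43 peaks in a bin, while most late peaks lie in the second part of the domain.

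At a resolution of 100 kb the domain is a chain of crests with few gaps. Overlapping peaks of the 3 ORCA lists were merged into 1149 ORCA regions, which covered 24.3% of the domain. Of the 63 bins, 46 were dense, with 10 or more regions, 14 held 1 to 9 regions and 3 held none. In the rest of chromosome 8, 72.5% of 1400 bins held no ORCA region. The fullest bin there had 11 regions, at 126.4 to 126.5 Mb, and 43 of the 63 domain bins exceeded it. The median bin held 13 early, 13 mid and 1 late peaks in the domain and 0 of each in the rest.

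The 6 dense stretches differed in length and in how many stages they shared. The first ran from 140.6 to 141.1 Mb with 49 early, 59 mid and 9 late peaks, and was followed by a single dense bin at 141.2 to 141.3 Mb and a short stretch at 141.5 to 141.7 Mb with 38 early, 28 mid and 1 late peaks. The longest ran from 142.0 to 143.9 Mb and held 312 early, 328 mid and 27 late peaks in 453 regions. The next, from 144.0 to 145.3 Mb, held nearly as many early and mid peaks, 307 and 306, but 65 late peaks. The last lay at 145.5 to 146.1 Mb with 144 early, 150 mid and 42 late peaks. The share of regions found in all 3 stages was 3.97% in the stretch from 142.0 Mb, and 13.9% and 14.3% in the 2 stretches beyond 144.0 Mb, against 3.94% of all regions of the series.

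The fullest bins lay between 143.5 and 145.7 Mb. The bin from 144.5 to 144.6 Mb had 40 early, 43 mid, 6 late and 22 MeDIP peaks in 41 ORCA regions, 38 of which overlapped a MeDIP peak. ORCA regions covered 62.6% of its bases. The bin from 145.6 to 145.7 Mb had 37 early, 40 mid and 12 late peaks in 39 regions, and that from 144.6 to 144.7 Mb had 35, 41 and 9 in 37 regions, with the highest ORCA coverage of any bin, 69.0%. The other 2 of the 5 fullest, from 143.5 to 143.6 Mb and from 144.3 to 144.4 Mb, held 38 and 37 regions. At 50 kb the early, mid and region counts all peaked at 144.55 to 144.6 Mb, with 23 early peaks, 27 mid peaks and 26 regions, whereas the late count peaked at 145.7 to 145.75 Mb with 13 late peaks.

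Early ORCA peaks stood at 183.8 per Mb beyond 142 Mb, at 59.0 from 140 to 142 Mb and at 8.2 from 135 to 140 Mb, and mid peaks at 189.9, 52.5 and 10.8. A description by a single step returns a step whether the rise is sharp or graded. The single step in peaks per 100 kb that best described the window from 130 Mb to the end fell at 140.6 Mb for early and for mid peaks. Early peaks stood at 15.7 per 100 kb beyond this step and at 0.858 before it, and mid peaks at 15.9 beyond and 0.953 before it. The step lay at 140.7 Mb for MeDIP, with 14.7 peaks per 100 kb beyond it and 1.29 before it. For late peaks it lay at 143.2 Mb, with 4.19 per 100 kb beyond it and 0.235 before it, although 9 late peaks already lay in the first dense stretch. With the higher-scoring part of each list the step moved to 142.2 Mb for mid and 144.2 Mb for late peaks.

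The flank before 140 Mb was already denser in ORCA than most of the chromosome. From 130 to 135 Mb there were 9.4 early, 8.6 mid and 0.4 late peaks per Mb, against 3.14, 2.88 and 0.265 over the whole rest of the chromosome. The threshold of 140 Mb itself fell in an empty stretch. The first early peak inside it lay at 140268111 to 140269071 with a score of 65.8, and the last one outside at 139971584 to 139972336 with a score of 52.5. The neighbours of the threshold lay at 140314736 and 139893853 in the mid list, at 140602610 and 139389574 in the late list, and at 140354101 and 139954023 in the MeDIP list, by their starts. On the outer side, ORCA thinned from 18 regions in the bin from 146.0 Mb to 9 and then 1, and the last ORCA peak, an early one, ended at 146216716.

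A few gaps broke the domain. The first 268 kb after 140 Mb held no ORCA peak of any stage and no MeDIP peak, as the end of a gap that began outside the domain at 139972337. The longest gap between ORCA regions of the domain spanned 165 kb from 140338844 to 140503403, before the first crest, and held 2 MeDIP peaks. The others among the 5 longest began at 145328124, 142744527, 141685152 and 141770482 and were 152, 89.4, 81.3 and 67.4 kb long. Of the 1148 gaps between neighbouring regions of the domain, which leave out that at 140 Mb, 2 exceeded 100 kb, against 252 of 681 in the rest of chromosome 8. The median gap between neighbouring regions was 1.22 kb in the domain and 55.0 kb in the rest, and 44.2% of domain gaps were under 1 kb, against 5.14%.

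Of the 5 longest gaps, that from 145328124 to 145480216 held the most MeDIP peaks. There were 12, or 7.89 per 100 kb, with a highest score of 3100. The gaps at 142744527 and 141685152 held 3.35 and 3.69 per 100 kb, that at 140338844 held 1.22 and that at 141770482 none. MeDIP peaks covered 14.3% of the gap from 145328124, less than the 22.1% of the whole domain. Its piece from 145.35 to 145.4 Mb held no MeDIP peak. Over the 2 bins from 145.3 to 145.5 Mb there were 3 early, 10 mid and 3 late peaks beside 21 MeDIP peaks, of which 18 overlapped no ORCA peak, while all 11 ORCA regions there overlapped a MeDIP peak. Of the 4 MeDIP peaks of the domain that had a score of 3100 and no ORCA peak, 3 lay in this stretch, at 145329931 to 145332638, 145489830 to 145492586 and 145492668 to 145498562. The remaining one lay at 142261932 to 142263629. The adjoining bin from 145.5 to 145.6 Mb held 33 early and 34 mid peaks. An opposite case was the bin from 142.5 to 142.6 Mb, with 20 early, 16 mid and 1 late peaks in 27 regions but 5 MeDIP peaks, and 5 of the 27 regions overlapped a MeDIP peak.

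**Figure D2:**
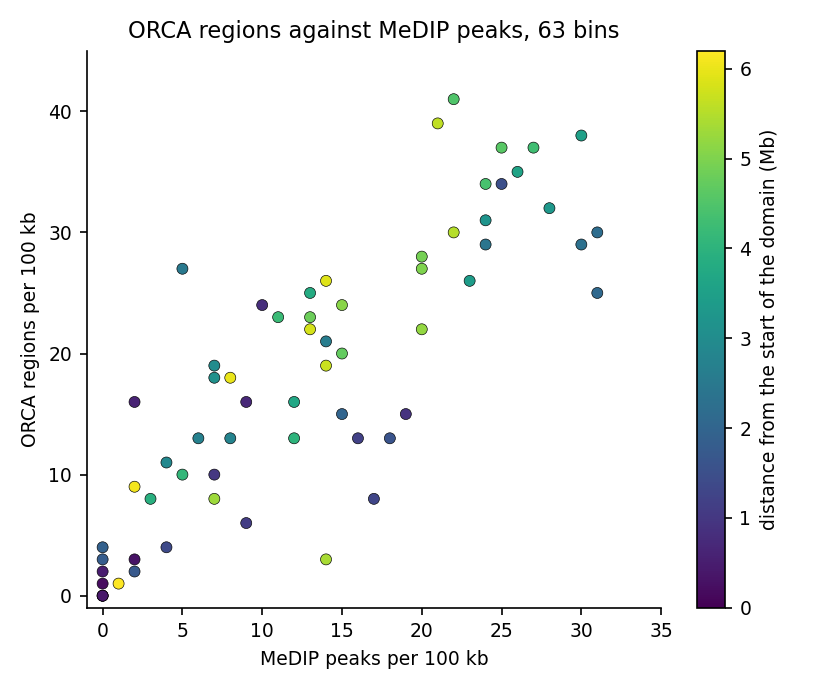
ORCA regions per 100 kb (y axis) against MeDIP peaks per 100 kb (x axis) for the 63 bins of the domain, each point a bin coloured by its distance from 140 Mb. Bins with more MeDIP peaks held more ORCA regions, and the bins with 27 regions beside 5 MeDIP peaks and with 3 regions beside 14 MeDIP peaks stand off this trend.

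Across the 63 bins the counts moved together. Spearman's rho was 0.94 between early and mid peaks, 0.78 between early and late and 0.83 between mid and late peaks, and 0.84 between ORCA regions and MeDIP peaks (Pearson's r 0.94, 0.72, 0.75 and 0.84). For single stages against MeDIP rho was 0.80 (early), 0.77 (mid) and 0.51 (late). At 50 kb, over 125 bins, the values were 0.91 for early and mid peaks and 0.79 for regions and MeDIP. Bins share libraries and the base composition of their stretch and are not independent, so these values carry no test. The fullest MeDIP bins, at 142.1 to 142.3 Mb with 31 peaks each, held 0 and 2 late peaks, whereas the fullest late bin, at 145.7 to 145.8 Mb with 15 late peaks, held 14 MeDIP peaks.

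The opposite end of the chromosome is given beside the domain as a description, since the domain was selected for its ORCA peaks. The domain held 133 MeDIP, 144 early, 146 mid and 24.2 late peaks per Mb. Over a stretch of the same length at the start of chromosome 8 there were 46.7 MeDIP peaks per Mb but 1.44 early, 1.44 mid and 0.642 late peaks per Mb. The fullest MeDIP bin of the chromosome lay there, at 1.8 to 1.9 Mb, with 36 MeDIP peaks beside 2 early, 3 mid and 1 late ORCA peaks.

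Sharing between stages was high in the domain. Of its 896 early peaks, 551 overlapped a mid peak by at least 1 bp (61.5%, interval 58.3 to 64.6), against 23.4% of 402 early peaks in the rest of chromosome 8 and 32.6% of the whole early list. The difference between domain and rest was 38.1 percentage points (interval 32.7 to 43.1). A late peak was found at 137 early peaks of the domain (15.3%), against 5.22% in the rest and 8.91% in the whole list. The domain's share lay above the rest of its chromosome in both comparisons. These contrasts include the ORCA density by which the domain was selected.

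The other directions gave the same order. A reversed pair counts the same overlaps from its other list and is no separate observation, and the ORCA density enters here too. An early peak was met by 524 of the 909 mid peaks (57.6%), against 24.7% in the rest and 32.6% of the list, and a late peak by 147 (16.2%), against 5.69% and 9.53%. Of the 151 late peaks, 120 overlapped an early peak (79.5%, interval 72.3 to 85.1), against 58.8% of 34 late peaks in the rest and 65.4% of the list. A mid peak was found at 129 late peaks (85.4%, interval 78.9 to 90.2), against 58.8% and 70.3%. With early and mid lists of the late length these shares were 45.03% with an early and 53.6% with a mid peak. With 34 late peaks in the rest, the late differences are wide, at 20.6 percentage points (interval 4.21 to 38.2) for early and 26.6 (interval 10.4 to 43.9) for mid peaks. Of the 151 late peaks, 12 stood apart from both other stages (7.95%, interval 4.604 to 13.4). The share was 26.5% of the 34 late peaks in the rest (interval 14.6 to 43.1) and 22.3% of the 1177 late peaks outside the domain (interval 19.98 to 24.7).

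In so dense a stretch many peaks would meet by position alone. Each early peak of the domain was therefore moved by every distance from 50 to 500 kb in either direction within the domain, which gave an average overlap with mid peaks of 32.5%, and put at every position of the domain, which gave 27.0%. The observed 61.5% was 1.89 times the first value and 2.28 times the second. In the rest of chromosome 8 the same shifts gave 1.25%, so that the observed 23.4% was 18.7 times higher. Counted as percentage points, the excess over shifted peaks was 29.0 in the domain and 22.1 in the rest, and counted as a ratio it was smaller in the domain. For late peaks of the domain, shifts gave 36.6% with an early and 38.5% with a mid peak, and the observed shares were 2.17 and 2.22 times higher. Their excess over shifted peaks was 42.8 and 46.9 percentage points in the domain, below the 57.5 points found for both pairs among the 34 late peaks of the rest.

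**Figure D3:**
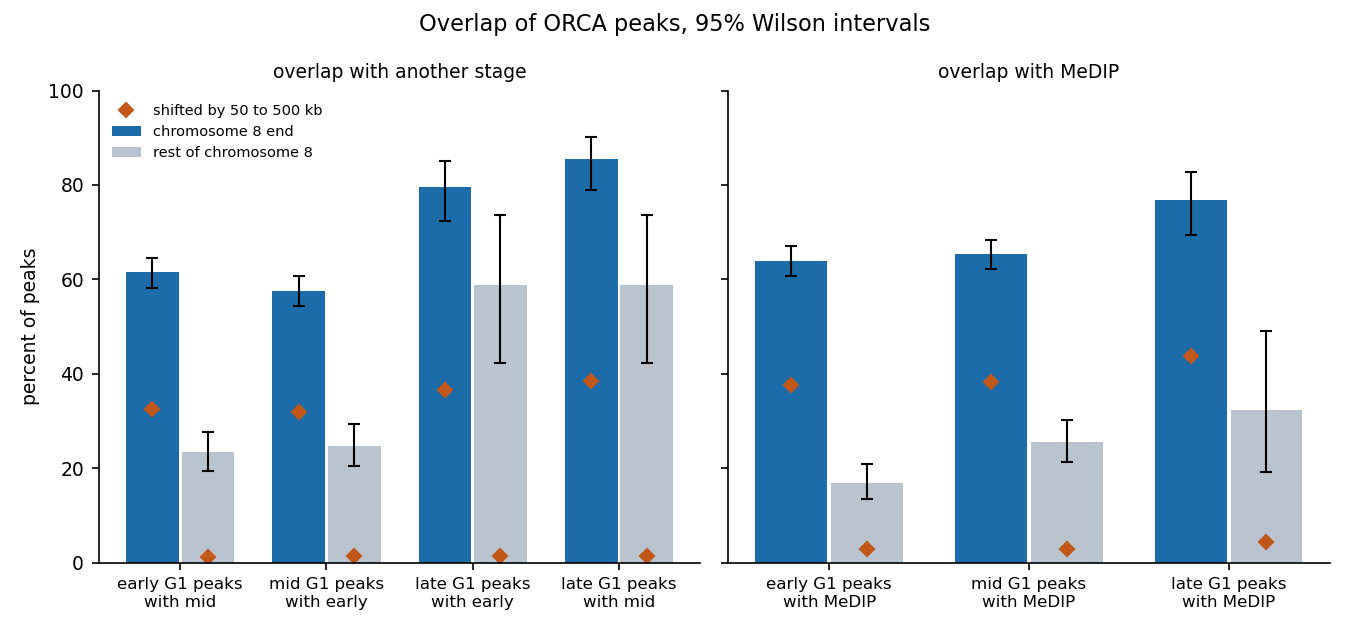
Percent of ORCA peaks overlapping a peak of another stage (left) or a MeDIP peak (right), at the end of chromosome 8 (blue) and in the rest of the chromosome (grey), with 95% Wilson intervals as bars. Diamonds give the average after shifts of 50 to 500 kb, which lies at 31.9 to 43.8% in the domain and at 1.25 to 4.42% in the rest, below the observed share in each pair.

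The peaks were wider than those in the rest of chromosome 8, and the early and mid peaks ranked higher than their lists. The median width was 916.5 bp for early peaks of the domain against 667 bp in the rest of chromosome 8, 920 against 698 bp for mid peaks, 1106 against 956 bp for late peaks and 1142.5 against 794 bp for MeDIP peaks. The median early peak of the domain stood at 32.0% of its list when ordered from the highest score, and the median mid peak at 34.9%, against 56.1% and 57.3% in the rest. Late peaks of the domain were ordinary in their list, with a median at 51.4%. The highest score of an ORCA list, 3100, was reached by no ORCA peak of the domain, where the maxima were 1928 (early), 1216 (mid) and 903 (late). The score is the authors' value per peak and is comparable within a list.

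Width moves with overlap, and for early peaks below 2000 bp the contrast with the rest of the chromosome remained within width classes. The classes were not set beside shifted peaks, so these contrasts include the higher ORCA and MeDIP density of the domain. Among early peaks of 500 to 1000 bp, 51.2% of 498 in the domain overlapped a mid peak, against 23.9% of 230 in the rest, and 57.8% against 13.5% overlapped a MeDIP peak. Among those of 1000 to 2000 bp, 74.2% of 333 against 32.1% of 53 overlapped a mid peak and 71.8% against 32.1% a MeDIP peak. At 2000 bp and above the order was the other way for MeDIP, 77.5% of 40 domain peaks against 92.9% of 14 peaks in the rest, with intervals of 62.5 to 87.7 and 68.5 to 98.7 that overlap. Mid peaks of 500 to 1000 bp overlapped an early peak in 49.8% against 15.9% and MeDIP in 57.9% against 22.6% of cases. At 1000 to 2000 bp the shares with an early peak were closer, 65.4% of 315 against 55.9% of 59, with overlapping intervals. At 2000 bp and above they were 92.1% against 88.9%, and with MeDIP 87.3% of 63 against 88.9% of 9.

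The strongest ORCA sites of the domain lay in a pair of adjoining regions near 145 Mb. The region from 144996371 to 145020961 was 24591 bp wide and held 7 early, 4 mid and 3 late peaks, including the highest-scoring early peak (144996371 to 145005412, score 1928) and mid peak (145012999 to 145019583, score 1216) of the domain. The region from 144983843 to 144996346 lay directly before it, was 12504 bp wide and held the highest-scoring late peak (144983912 to 144991808, score 903). Together they contained 4 of the 5 top early peaks, 3 of the 5 top mid peaks and 2 of the 5 top late peaks. All 15 of these top ORCA peaks overlapped a peak of each other stage and a MeDIP peak. Many of them share a merged region and overlap one another, so they are not 15 separate cases. Of 306 early peaks of the domain in the upper 20% of their list, 82.0% met a mid peak and 71.6% a MeDIP peak. The MeDIP share in that part of the list was 84.6% of 298 at mid G1 and 88.9% of 27 at late G1.

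A second group of strong sites lay from 145.7 Mb on. The region from 145733270 to 145743680 was 10411 bp wide with 4 early, 6 mid and 3 late peaks, and that from 145745025 to 145753903 was 8879 bp wide with 4, 5 and 5. They were among the 6 best regions of all stages by mean rank. The others of the 10 best lay at 144402902 to 144408159, 144940002 to 144940975, 144653459 to 144657834, 144667125 to 144674294, 144897174 to 144901937 and 145180284 to 145181405. All 10 overlapped a MeDIP peak, and the one at 144940002 was narrow, at 974 bp. Of the 17 regions of at least 5 kb in the domain, 16 lay beyond 144 Mb, and all 17 were found in every stage and overlapped a MeDIP peak. Width raises the chance of each of these overlaps, and its part in them was not tested.

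Regions of more than 1 stage made up 38.2% of the ORCA regions of the domain. The share was 14.4% in the rest of chromosome 8 and 18.6% over all regions of the series. The domain held 337 early-only, 361 mid-only and 12 late-only regions, 330 regions of early and mid G1, 6 of early and late, 9 of mid and late, and 94 of all stages. Regions of all stages made up 8.18% of the ORCA regions of the domain, against 2.05% in the rest of chromosome 8 and 3.94% over the series. The best early-only regions lay at 144248103 to 144250865 (score 230), 144493278 to 144494691 (score 210) and 143856570 to 143858693 (score 159). The best mid-only regions lay at 144902067 to 144903977 (score 302), 145909478 to 145911689 (score 276) and 144487498 to 144489843 (score 231), and all 3 overlapped a MeDIP peak, as did 1 of the 3 early-only ones. The best late-only regions, at 145606317 to 145607672, 142413937 to 142414963 and 144347379 to 144348294, had scores of 75.6, 73.0 and 71.4, of which the first overlapped a MeDIP peak. Early peaks with no other stage had a median width of 813 bp, those with 1 other stage 976 bp and those with both 1108 bp, and their median scores were 65.3, 79.9 and 111.

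ORCA and methylation met at most ORCA peaks of the domain. Of the early peaks, 573 of 896 overlapped MeDIP (64.0%, interval 60.8 to 67.0). The counts were 594 of 909 in mid G1 (65.3%, interval 62.2 to 68.4) and 116 of 151 in late G1 (76.8%, interval 69.5 to 82.8). The shares in the rest of chromosome 8 were 16.9%, 25.5% and 32.4%, and those of the whole lists 35.3%, 48.6% and 47.9%. The domain lay above the rest of its chromosome by 47.0 percentage points in early G1 (interval 41.9 to 51.6). The difference was 39.9 points at mid G1 (interval 34.2 to 45.03) and 44.5 points at late G1 (interval 26.1 to 59.0). In the domain the early and mid shares were within each other's intervals, whereas over the whole lists the mid share was the higher.

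The MeDIP background of the domain was itself high. At every position of the domain, peaks of the same widths would meet a MeDIP peak in 31.9% of cases with early, 32.1% with mid and 34.0% with late widths. Shifts of 50 to 500 kb within the domain gave 37.7%, 38.2% and 43.8%. The observed shares were 1.70, 1.71 and 1.75 times the shifted ones, an excess of 26.2, 27.1 and 33.0 percentage points. In the rest of the chromosome shifts gave 2.94%, 2.89% and 4.42%, so that the ratios there were 5.76, 8.81 and 7.32 and the excess 14.0, 22.6 and 27.9 percentage points. The domain was thus higher by the difference and lower by the ratio.

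The overlap was lower without the widest peaks of the lists, and the parts of ORCA and MeDIP widths in this were not separated. With the widest 5% of each list left out, ORCA and MeDIP alike, 842 of the 896 early and 673 of the 826 MeDIP peaks of the domain remained, and the MeDIP share was 35.99% in early G1, against 34.0% in mid and 31.9% in late G1. Shifted peaks then gave 21.8%, 22.01% and 23.2%, so that the ratios were 1.65, 1.55 and 1.38. The excess over shifted peaks was 14.2 percentage points in the domain against 10.1 in the rest for early peaks, but 12.0 against 17.4 for mid and 8.75 against 22.5 for late peaks, so that the order held at early G1 and turned round at the other stages. The difference from the rest of the chromosome was then 23.3 (early), 14.0 (mid) and 5.47 (late) percentage points, and the interval of the late difference included 0, at -12.6 to 19.8. With early and mid lists of the late length, the shares were 80.5% and 87.6%, so that the late share was then the lowest.

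The domain held 5 MeDIP peaks of at least 10 kb, of 39 in the series, and the rest of chromosome 8 none. ORCA regions covered 99.9% of the widest, from 144988667 to 145008211, 93.2% of that from 145721091 to 145732862 and 92.1% of that from 144883705 to 144896911. Coverage was 48.2% in the peak from 145309411 to 145320215. The peak from 145478325 to 145489301, at the edge of the ORCA gap that began at 145328124, had 3 mid peaks, no early and no late peak, and a coverage of 17.6%. All 5 had a score of 3100.

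Measured by bases, 53.3% of the sequence under early peaks of the domain, 57.4% of that under mid peaks and 61.6% of that under late peaks lay inside a MeDIP peak, while MeDIP peaks covered 22.1% of the domain. In the rest of the chromosome the shares were 18.0%, 25.6% and 28.5%, with a MeDIP coverage of 1.51%. For ORCA peaks without a MeDIP overlap, the median distance to the nearest MeDIP peak was 2150 bp for 323 early, 1896 bp for 315 mid and 1311 bp for 35 late peaks, against 36822, 41916 and 68459 bp in the rest. These distances were not compared with shifted peaks, and MeDIP peaks stood at 133 per Mb in the domain and 15.8 per Mb in the rest.

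Seen from the MeDIP list, 550 of the 826 MeDIP peaks of the domain overlapped an ORCA peak of any stage (66.6%, interval 63.3 to 69.7), against 6.34% of 2019 in the rest of chromosome 8 and 8.04% of the whole list. This contrast includes the ORCA density by which the domain was selected. An early peak was met by 51.9% and a mid peak by 52.5% of the MeDIP peaks of the domain, against 33.8% and 34.5% when these were shifted by 50 to 500 kb within it, and 4.6% and 6.03% of the whole list. The ratios of observed to shifted shares were 1.54 for early and 1.52 for mid peaks in the domain, against 5.91 and 8.61 in the rest. MeDIP peaks with ORCA were stronger, with a median score of 482 and width of 1431 bp, than the 276 without, with 140 and 801 bp. Of the 89 MeDIP peaks of the domain with a score of at least 3100, 85 overlapped ORCA. The share at this score was not counted outside the domain. Among MeDIP peaks in the upper 20% of their list, 90.9% of 230 in the domain overlapped ORCA, against 16.9% of 313 in the rest. In the lower part of the list, ranked beyond 50%, the shares were 48.6% and 3.06%. Wider MeDIP peaks meet more ORCA by position. The shares by score were not counted over the whole list or set beside shifted peaks. The part of width in them was not tested. The domain's highest score, 3100, was shared by 89 MeDIP peaks, and the 5 named are the first of these by position. They started at 140713510, 141358831, 141565575, 141569124 and 142137722. Each overlapped an early peak, all but that at 141358831 a mid peak, and those at 140713510 and 141569124 a late peak.

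MeDIP overlap was higher at regions of more stages. It was found at 45.7% of early-only (interval 40.5 to 51.0), 51.5% of mid-only (interval 46.4 to 56.6), 72.1% of early and mid (interval 67.05 to 76.7) and 84.0% of all-stage regions (interval 75.3 to 90.1), with 37.2% over all regions of the series. Among the 12 late-only regions it was found at 5. The shares for the same classes in the rest of chromosome 8 were 10.9%, 21.7%, 33.8% and 42.9%, the last on 14 regions. Wider regions meet more MeDIP: shifted regions of the domain gave 33.2%, 34.4%, 41.9% and 55.0%, and the ratios to these were 1.38, 1.496, 1.72 and 1.53. By ratio, then, all-stage regions were not above those of early and mid G1.

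**Figure D4:**
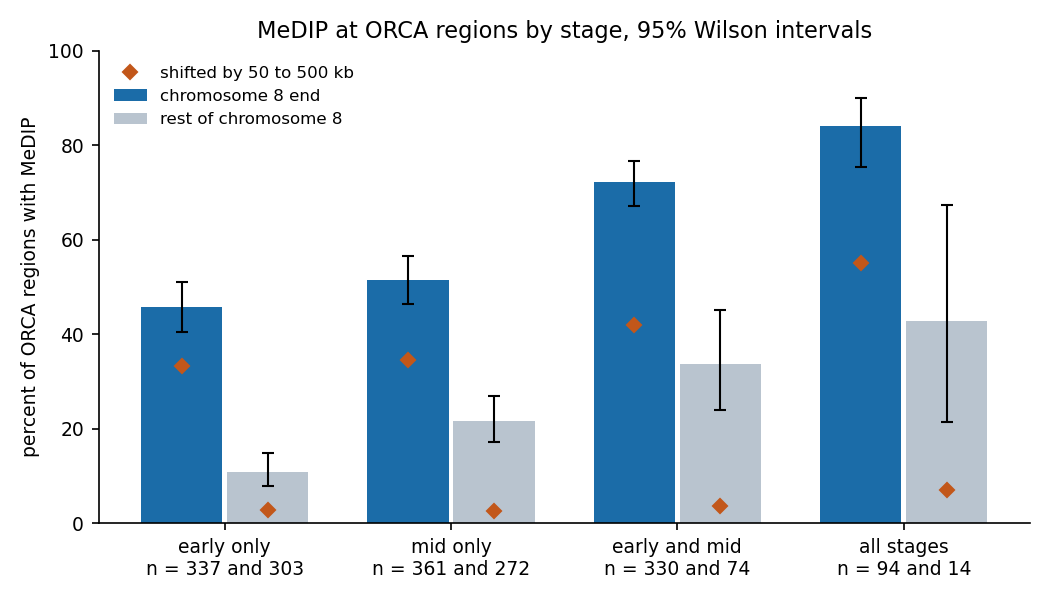
Percent of ORCA regions with a MeDIP peak (y axis) by the stages in which they were found, at the end of chromosome 8 (blue) and in the rest of the chromosome (grey), with 95% Wilson intervals, and the number of regions of the domain and of the rest under each class. Diamonds mark shifted regions, and the blue bars run from 45.7% to 84.0%.

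Within the domain the late list, the all-stage regions and the MeDIP overlap were most frequent in the blocks from 144 to 146 Mb. In 1 Mb blocks from 140 Mb, a MeDIP peak was found at 32.5%, 44.3%, 49.8%, 61.7%, 69.2% and 68.6% of ORCA regions, and regions of all stages made up 5.19%, 1.03%, 1.88%, 6.05%, 12.8% and 15.5%. There were 19.1 late peaks per 100 early peaks in the first block, then 4.23, 4.93, 11.9, 18.1 and 32.0. Overlap of early with mid peaks was 48.9%, 35.2%, 45.8%, 60.2%, 73.3% and 74.1%. The first block stands apart by its late peaks, of which it had 9. For early peaks the observed MeDIP shares were 29.8%, 46.5%, 53.5%, 67.0%, 73.7% and 74.6%. Shifted early peaks gave 13.4%, 19.4%, 29.9%, 34.8%, 48.7% and 44.9%. In relative terms the shifted shares rose more than the observed ones from the first block to the fifth and the sixth. In the last piece, from 146 Mb to the end, 32.1% of 28 regions overlapped a MeDIP peak, and the early share of 30% lay below the 37.1% given by shifts.

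**Figure D5:**
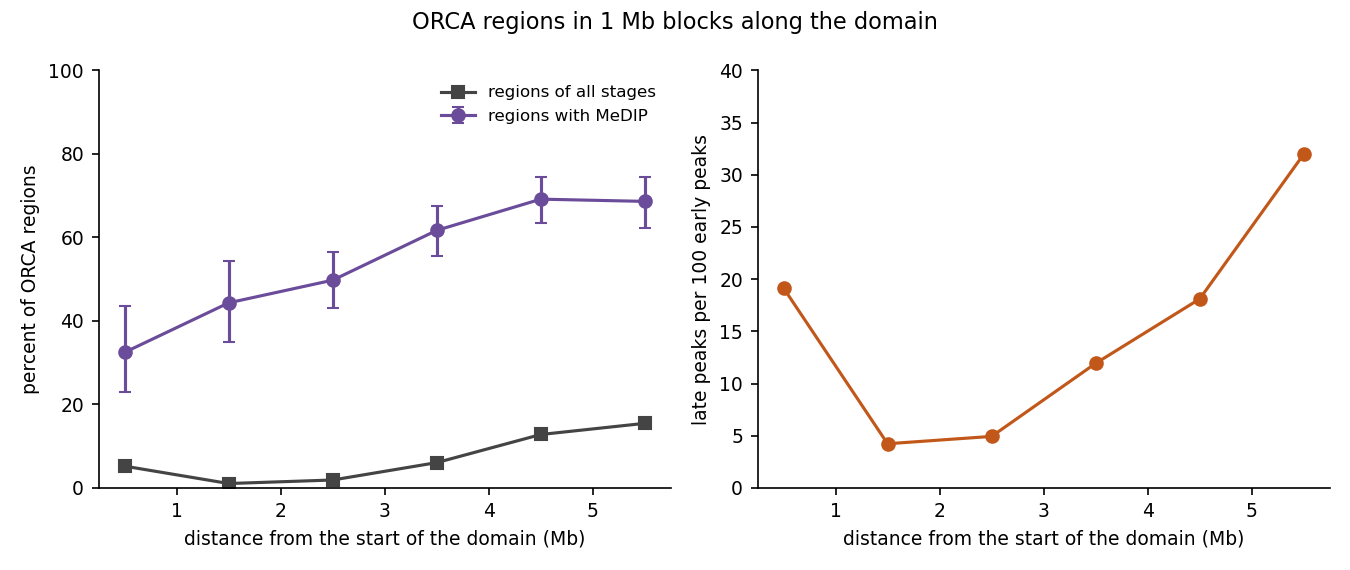
Percent of ORCA regions with a MeDIP peak and of regions found in all stages (left, with 95% Wilson intervals for MeDIP) and late peaks per 100 early peaks (right), in 1 Mb blocks against the distance from 140 Mb. The MeDIP share reaches 69.2% in the fifth block and the late peaks per 100 early peaks reach 32.0 in the sixth.

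The first 7 Mb of chromosome 7 are another stretch with dense ORCA peaks. Early peaks stood at 144 per Mb in the chromosome 8 domain and 174 per Mb there. The early MeDIP shares were 64.0% and 66.6% (difference -2.66 percentage points, interval -6.78 to 1.44) and the late ones 76.8% and 78.2% (difference -1.39, interval -10.5 to 7.54). Early peaks overlapped mid peaks in 61.5% and 64.9% of cases (difference -3.38, interval -7.55 to 0.768). These 3 intervals include 0, and the next 4 do not. The mid peaks of the chromosome 8 domain overlapped early peaks in 57.6% and those of chromosome 7 in 65.2% of cases (difference -7.51 percentage points, interval -11.7 to -3.25), and MeDIP peaks in 65.3% and 69.8% (difference -4.44, interval -8.54 to -0.352). Late peaks overlapped early peaks in 79.5% and 87.7% of cases (difference -8.24, interval -16.4 to -0.256), and MeDIP peaks overlapped any ORCA peak in 66.6% and 73.3% (difference -6.69, interval -10.8 to -2.65). MeDIP peaks overlapped early peaks in 51.9% and 58.3% and mid peaks in 52.5% and 59.3% of cases, with intervals also below 0. The remaining pairs had intervals that include 0. Shares were 85.4% and 83.8% for late with mid and 16.2% and 14.2% for mid with late peaks. They were 15.3% and 15.2% for early with late and 12.5% and 12.9% for MeDIP with late peaks. Peaks were narrower in the chromosome 8 domain, with early medians of 916.5 and 1165 bp.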

How the data were processed

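Peak lists of 4 samples were used, with 1 sample per group. Per the submitters' processing notes, Trimmomatic and Bowtie 0.12.7 were used, with the builds GRCh37 and hg19. The deposited lists give the start and end of each peak and the caller's score; no source states the caller's version, settings, control or depth. Starts are printed from 1. Peaks on chromosomes 1 to 22 and X were kept. An overlap was at least 1 bp. The rest of chromosome 8 ran from its first peak to 140 Mb, less stretches over 1 Mb without any peak for densities. Shifts and positions were enumerated exactly at each base and carry no test. Boundaries were the best single Poisson step over 100 kb bins. The code was tested on simulated data. Named regions were the 5 top-scoring peaks per list, the 5 widest regions, the 10 best of all stages, the 5 best of these with a MeDIP peak, the 3 best per single stage, the 5 fullest bins, the 5 longest gaps and the 5 top MeDIP peaks with and without ORCA. Peaks with tied scores were ordered by position. The members and lists were chosen with earlier results of these data known. Genes were not assigned, since no hg19 annotation was used. The tools were Python 3.11.15, pandas 2.3.3, numpy 2.4.6, matplotlib 3.10.9 and scipy 1.17.1.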

Additional observations from a re-analysis of the deposited data

How the results depend on the processing

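Of 93 values under alternative settings, 43 stayed within the interval of the reported value (within 1 bin for boundaries) and 50 left it. Only the differences from the rest of chromosome 8 could change sign, and none did. Shares, ratios and positions cannot be negative. Values are given as early, mid and late unless named. With an overlap of 50% of the shorter peak, early with mid overlap was 52.3%, late with mid 78.8%, and the MeDIP shares 54.7%, 58.1% and 65.6%. With peaks within 1 kb, early with mid was 76.0%, late with early 89.4% and late with mid 92.05%, the MeDIP shares were 75.6%, 77.3% and 84.8%, and the differences from the rest of chromosome 8 were 54.9 (early) and 46.2 (mid) percentage points. With the higher-scoring part of each list, early with mid was 56.7% and the early MeDIP share 57.2%, the differences were 40.95, 30.9 and 61.6 points, the density ratios 69.4 (early), 81.15 (mid) and 11.35 (MeDIP), 55.6% of bins were dense, against 73.0% as reported, and the step lay at 142.2 Mb (mid) and 144.2 Mb (late). With early and mid lists of the late length, early with mid was 50.8%, late with early 45.03%, late with mid 53.6%, the MeDIP shares 80.5% (early) and 87.6% (mid), the early difference 22.2 points and the density ratios 167 and 109. Without the widest 5%, early with mid was 52.4%, late with early and with mid 64.6% each, the MeDIP shares 35.99%, 34.0% and 31.9%, the differences 23.3, 14.0 and 5.47 points and the MeDIP density ratio 7.075. With the start moved by 2 Mb, early with mid was 64.65%, the early MeDIP share 67.6% and the MeDIP density ratio 9.77. By covered bases the density ratios were 60.4 (early), 66.9 (mid) and 14.6 (MeDIP). With dense bins at 20 or more regions, 46.0% of bins were dense. With the rest of chromosome 8 weighted to the widths of the domain, which was chosen after seeing the data, the early difference was 40.2 points. The causes were not tested, except that a stricter overlap lowers a share, and a wider one raises it, by construction. No paired analysis was possible because each group has 1 sample.

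With 1 sample per group and no depth, the spread between samples is unknown. The inputs were not analysed here. The 34 late peaks in the rest of chromosome 8 limit every late comparison, and 13 of them were in the higher-scoring part. With lists of equal length, 24 early and 38 mid peaks remained there. The early difference of 22.2 points then had an interval of 3.92 to 42.3. Neighbouring peaks are not independent, so the true uncertainty is wider than the intervals.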
